A study of Mus musculus with 12 samples.

Results

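Proliferins are secreted glycoprotein hormones of the prolactin family, and the 2 proliferin genes described here are Prl2c2, also called proliferin-1, and Prl2c3, also called proliferin-2. They were taken as the rows with the symbols PRL2C2 and PRL2C3, which are 2 of the 23636 rows of the table of expression values. PRL2C2 was chosen by its TPM in CX3CL1-treated against untreated cells, where it was among the 5 largest rises, so its values in CX3CL1-treated and untreated cells are given as a description and were not tested. PRL2C3 was added as its near-identical copy.

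The RNA came from CT26, a mouse colon carcinoma cell line, and was sequenced in 4 groups of 3 biological replicates after 8 hours in culture. The untreated cells received no treatment. The second group received CX3CL1 (fractalkine, the chemokine ligand of the receptor CX3CR1) at 2 µg/ml, the third received the cytokine IFN-γ at 100 ng/ml, and the fourth received IFN-γ and CX3CL1, with doses taken from the study's methods and figure legend. The study's results text describes IFN-γ and TNF-α with CX3CL1 added afterwards. Its figure legend and the library labels name neither TNF-α nor an order of addition. All groups are the same cultured line, so the comparisons concern added ligand in tumor cells alone, without host tissue.

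Proliferins belong to a cluster of prolactin-like genes that expanded in rodents and that is best known from the placenta, where trophoblast giant cells secrete proliferin and it stimulates the growth and migration of endothelial cells. In cultured mouse fibroblasts, proliferin mRNA was first found as a transcript that serum and growth factors raise when resting cells start to divide. Secreted proliferin binds the cation-independent mannose 6-phosphate receptor, encoded by Igf2r, and its gene has served as a model for control by AP-1 and the glucocorticoid receptor at a shared site.

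Both genes lie on mouse chromosome 13 (GENCODE vM21, GRCm38, the same build as the mm10 used for alignment). Prl2c2 (ENSMUSG00000079092.4) spans chr13:12996125-13005383 on the minus strand, and Prl2c3 (ENSMUSG00000056457.6) spans chr13:12790816-12800079 on the same strand, 196 kb away. The next copy, Prl2c5, lies 177 kb from Prl2c2 at chr13:13182715-13191923 on the plus strand, and Prl2c1 lies a further 14.7 Mb away at chr13:27849342-27857788. The main transcript of each of these 4 genes has 5 exons.

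The copies are so alike that the coding sequence decides what the values can say about each. Prl2c2 and Prl2c3 differ at 3 of 672 coding bases (99.6% identity), as T14C, C200A and T319G, where the first letter is the Prl2c2 base, the number is the coding position counted from 1 at the A of the start codon, and the last letter is the Prl2c3 base. After the last of these positions, the remaining 353 coding bases, from 320 to 672, are the same in both. Prl2c2 and Prl2c5 differ at 26 of 672 aligned coding positions (96.1% identity), and Prl2c2 and Prl2c1 have 92.4% identity. The stretch from coding base 170 to 319 of the GENCODE transcripts is shown because it holds 2 of the 3 differences that tell Prl2c2 from Prl2c3. Capitals mark the 8 positions at which any of the 3 copies differs.
Prl2c2: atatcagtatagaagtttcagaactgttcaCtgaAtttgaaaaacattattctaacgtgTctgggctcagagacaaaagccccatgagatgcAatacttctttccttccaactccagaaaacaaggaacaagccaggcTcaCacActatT
Prl2c3: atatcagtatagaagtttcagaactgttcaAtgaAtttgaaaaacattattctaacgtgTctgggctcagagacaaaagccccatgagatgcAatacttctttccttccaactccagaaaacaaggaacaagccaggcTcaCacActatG
Prl2c5: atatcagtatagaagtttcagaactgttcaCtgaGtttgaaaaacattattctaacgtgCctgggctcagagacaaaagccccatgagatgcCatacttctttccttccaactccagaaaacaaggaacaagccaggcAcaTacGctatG
In this stretch Prl2c3 differs from Prl2c2 at 2 positions, and Prl2c5 differs from Prl2c2 at 7.

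Because a read can be assigned to 1 copy only where it covers a difference, the transcripts were cut into all overlapping windows, and each window was looked up in the transcripts of all other annotated genes. For windows of 150 bases, the length of 1 read of the sequenced pairs per the study's methods, 353 of the 693 windows of the Prl2c2 transcript (50.9%) were found unchanged in another gene, namely Prl2c3 and the pseudogene Gm7040. The corresponding share was 49.9% for Prl2c3, and no such window of Prl2c5 or Prl2c1 was found in another gene. With windows of 50 bases the share was 89.5% for Prl2c2 and 78.6% for Prl2c3. A read pair covers more than 1 such window, and how the authors assigned reads that fit several genes is not given in the sources used here. The split between PRL2C2 and PRL2C3 is therefore uncertain, and their sum is less dependent on it.

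**Figure D1:**
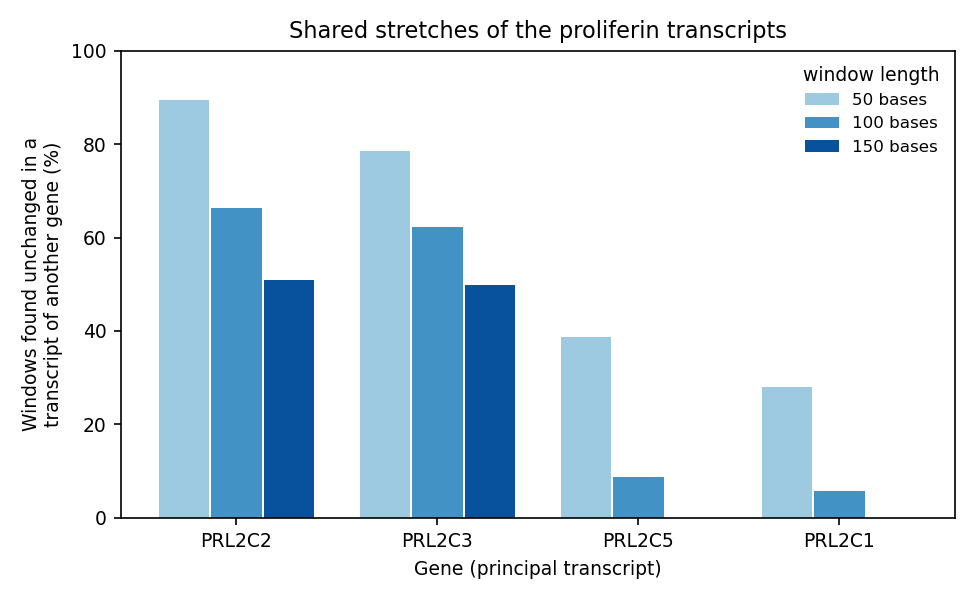
Share of windows of 50, 100 and 150 bases (bars, in percent) of the main transcript of each of 4 proliferin genes (horizontal axis) that occur unchanged in a transcript of another annotated gene. At 150 bases the share is 50.9% for PRL2C2 and 49.9% for PRL2C3, and it is 0% for PRL2C5 and PRL2C1.

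Expression values are TPM, in which read numbers are divided by transcript length and scaled to a fixed total in every library. TPM carry no read depth, so precision comes from the spread of the 3 replicates, given as the SD (n = 3). Across the 12 libraries, 10613 to 10824 symbols had at least 1 TPM, and replicates correlated with r of 0.994 to 0.998 on the log2(TPM + 1) scale. CX3CL1 replicate 2 was the least alike, at 0.994 and 0.995 with the other CX3CL1 libraries, which correlated at 0.998 with each other. Tests were run over all 11878 genes that averaged 0.2 TPM or more, and a gene was called when its adjusted p was under 0.05. PRL2C2 passed this filter on low values, through its treated groups and its untreated group alike, and PRL2C3 did not.

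PRL2C2 mRNA was low in untreated cells, higher with either ligand alone, and highest with both. The untreated replicates 1, 2 and 3 had 2.34, 2.49 and 1.93 TPM (mean 2.25 ± 0.289). With CX3CL1 the level was 27.9, 44.2 and 24.8 TPM (mean 32.3 ± 10.4), and with IFN-γ it was 32.4, 59.9 and 45.0 TPM (mean 45.8 ± 13.7). These treated groups lay wholly above the untreated group, and they overlapped each other, so the order of CX3CL1 and IFN-γ alone is within the spread of the replicates. With IFN-γ and CX3CL1 the level was 97.5, 167 and 142 TPM (mean 136 ± 35.4), and every library of this group exceeded every library of the other 3 groups. Replicate 2 was the highest of the 3 in each of the 4 groups. In these bulk libraries, more cells with the transcript and more transcript per cell cannot be told apart.

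**Figure D2:**
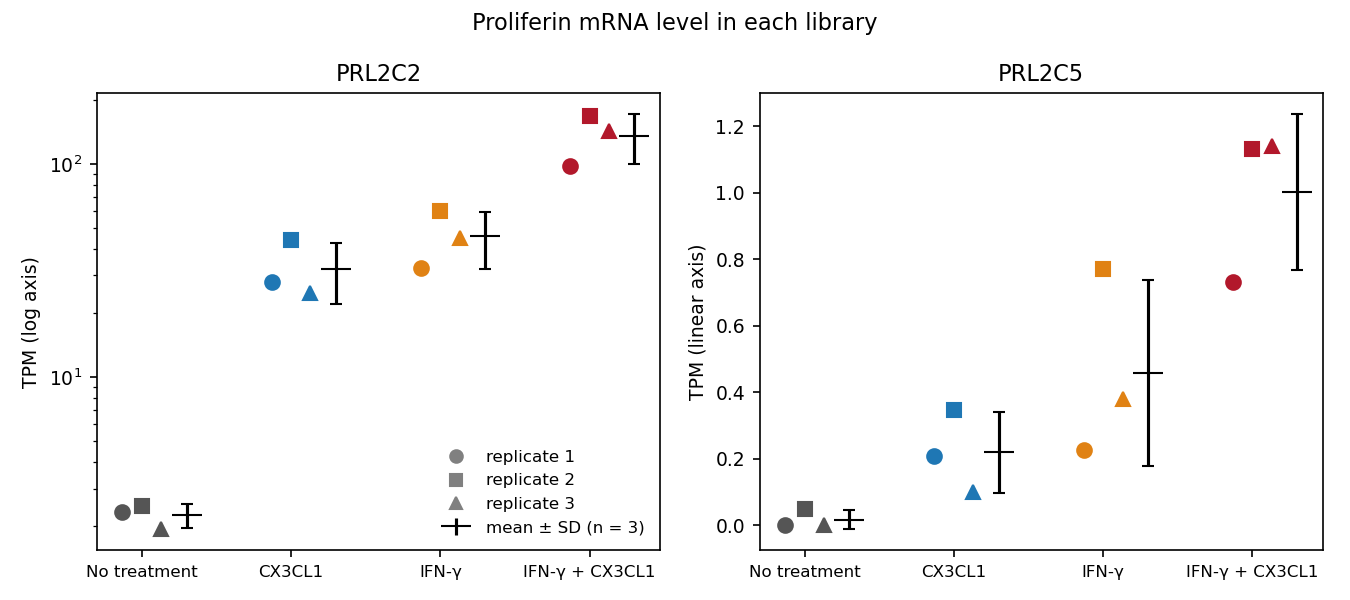
TPM of PRL2C2 (left, log axis) and PRL2C5 (right, linear axis) in each of the 12 libraries by treatment, with the replicate number as the marker and the mean ± SD (n = 3) as the bar. PRL2C2 is 1.93 to 2.49 TPM in untreated cells and 97.5 to 167 TPM with IFN-γ and CX3CL1, and PRL2C5 has the same order of group means and reaches 1.14 TPM at most.

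Among all rows, PRL2C2 stood between 9930 and 10147 from the top in the untreated libraries, and between 1051 and 1838 from the top in the libraries with both ligands. With CX3CL1 alone its place was 3897 to 5436, and with IFN-γ alone it was 2975 to 4974. A weakly expressed gene of untreated CT26 cells was thus among the more abundant transcripts after combined treatment.

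PRL2C3 was listed at 0 in 11 of the 12 libraries. The exception was the third replicate with IFN-γ and CX3CL1, at 0.0661 TPM, the library in which PRL2C2 was 142 TPM. PRL2C3 could not be tested. Prl2c2 and Prl2c3 share the long unchanged stretches described above, and the part of read assignment in these zeros was not tested.

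For CX3CL1 against no treatment, the ratio of PRL2C2 was 11.96, 17.7 and 12.9 in the pairs of libraries with the same replicate number. The difference was 3.32 on the log2(TPM + 1) scale (SE 0.25). By size it held rank 4 in a list of 212 genes called higher without overlap of the groups. Its place in that list is a description and no test of PRL2C2. Without CX3CL1 replicate 2 the difference was 3.08. CXCL10, a chemokine, stood just inside the limit of the 5 largest at 3.10, and GBP2B, a guanylate-binding protein, stood just outside it at 2.94. Of all genes tested, 1.78% were called higher in this comparison, and in 5.5% every CX3CL1 library exceeded every untreated library. This contrast chose PRL2C2, so nothing is read from that share.

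For IFN-γ against no treatment, the ratio of PRL2C2 was 13.9, 24.1 and 23.3 by replicate number, and the difference was 3.81 on the log2(TPM + 1) scale. By size it held rank 31 in a list of 701 genes called higher without overlap, and this place is no test of PRL2C2 either. This comparison shares the untreated libraries with the one that chose the gene, and its value is a description as well. In 20.6% of all genes tested, every IFN-γ library exceeded every untreated library.

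The comparison that the choice of PRL2C2 did not use is CX3CL1 in the presence of IFN-γ, which asks whether CX3CL1 still acts on tumor cells that receive the inflammatory cytokine. PRL2C2 was 3.01, 2.80 and 3.16 times as high with IFN-γ and CX3CL1 as with IFN-γ alone in libraries with the same replicate number. All 3 libraries with both ligands exceeded all 3 with IFN-γ alone, which was so for 8.54% of all genes tested. PRL2C2 rose by 1.56 on the log2(TPM + 1) scale (SE 0.25, 95% interval 1.01 to 2.10, limma, adjusted p = 0.021), a 2.94-fold difference of TPM + 1. Of all genes tested, 0.345% were called higher, and PRL2C2 held rank 14 among these 41 genes. The sum of PRL2C2 and PRL2C3 rose by 1.56 as well (limma, adjusted p = 0.021).

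This call depends on the fit, whose spread comes from all 12 libraries, those that chose the gene included. With the 6 libraries compared alone the adjusted p was 0.116, and without the filter on low TPM it was 0.0945. Replicate numbers went with shared deviations in these 6 libraries, and with the number as a block the adjusted p of PRL2C2 was 0.00131, with 0.749% of genes called higher. Without the block, the adjusted p was 0.0767 without IFN-γ replicate 1, 0.0844 without IFN-γ replicate 3, 0.0582 without replicate 2 of the group with both ligands, and 0.123 without replicate 3 of that group. The log2 difference stayed between 1.33 and 1.77 when any 1 of the 12 libraries was left out.

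For IFN-γ in the presence of CX3CL1, PRL2C2 was 3.49, 3.79 and 5.72 times as high with both ligands as with CX3CL1 alone, a difference of 2.05 on the log2(TPM + 1) scale. Every library with both ligands exceeded every CX3CL1 library, which was so for 14% of all genes tested. This comparison shares the CX3CL1 libraries with the one that chose PRL2C2, and it too is given without a test.

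Set side by side as mean TPM, CX3CL1 went with 30.1 TPM more PRL2C2 without IFN-γ and with 90.0 TPM more in its presence. As a ratio of means the order was the other way, 14.4 without IFN-γ and 2.97 in its presence. Likewise IFN-γ went with 43.5 TPM more without CX3CL1 and 103.4 TPM more with it, at ratios of means of 20.3 and 4.2. The difference between these effects was not tested, since the untreated and CX3CL1 libraries chose the gene.

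Of the other proliferin copies, PRL2C5 had the highest listed level, and it encodes a proliferin known as mitogen-regulated protein 4. It was 0, 0.0505 and 0 TPM in untreated cells, and 0.209, 0.347 and 0.101 TPM with CX3CL1. With IFN-γ it was 0.228, 0.770 and 0.381 TPM, and with both ligands it was 0.731, 1.13 and 1.14 TPM. The group means followed the order of PRL2C2, with overlap between the groups with IFN-γ and with both ligands and between those with CX3CL1 and with IFN-γ. PRL2C5 averaged 0.0168 TPM in untreated cells and passed the filter on low values only through the treated groups, so its differences are a description. On the log2(TPM + 1) scale they were 0.26 with CX3CL1 and 0.50 with IFN-γ against no treatment, 0.47 when CX3CL1 was added to IFN-γ, and 0.71 when IFN-γ was added to CX3CL1.

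In the 9 treated libraries PRL2C5 stood at 0.408% to 1.29% of PRL2C2. Deviations from the group means of the 2 genes correlated with r = 0.926 over the 12 libraries on the log2(TPM + 1) scale. Of the Prl2c5 transcript, 8.72% of windows of 100 bases occur unchanged in another gene, and what part reads from Prl2c2 play in the level of PRL2C5 was not tested.

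PRL2C1, the copy far along the chromosome, was at 0 in the untreated libraries and above 0 in 7 of the others. Its means were 0.0895 TPM with CX3CL1, 0.154 TPM with IFN-γ and 0.32 TPM with both. It did not pass the filter. PRL2C4 has a row that is 0 in every library, and RefSeq lists that name as a synonym of Prl2c3.

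The rest of the prolactin family was close to silent. Of the 28 family symbols in the table, 14 were at 0 in every library and 3 passed the filter, namely PRL2C2, PRL2C5 and PRL itself. PRL, the pituitary hormone prolactin, had means of 0.559 ± 0.248 TPM in untreated cells, 0.776 ± 0.310 with CX3CL1, 0.210 ± 0.191 with IFN-γ and 0.193 ± 0.120 with both ligands. It was not called in any of the 4 comparisons. For IFN-γ in the presence of CX3CL1 its log2 difference was -0.56 (limma, adjusted p = 0.0765), and with the replicate block the adjusted p was 0.0431.

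The other family members above 0 in any library were PRL2A1, PRL3D2, PRL3D3, PRL7A1, PRL7D1, PRL8A2, PRL8A8, PRL8A9 and GH, placental hormones apart from growth hormone, and none passed the filter. PRL7A1 was the most widely listed, above 0 in 11 libraries, at 0.281 TPM or less. PRL2C2 made up 64.5% to 81.9% of the summed TPM of the family in untreated libraries. It made up 95.4% to 96.9% with CX3CL1, 97.0% to 98.3% with IFN-γ and 98.3% to 98.8% with both. The other 27 symbols summed to 0.544 to 2.00 TPM in any library.

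**Figure D3:**
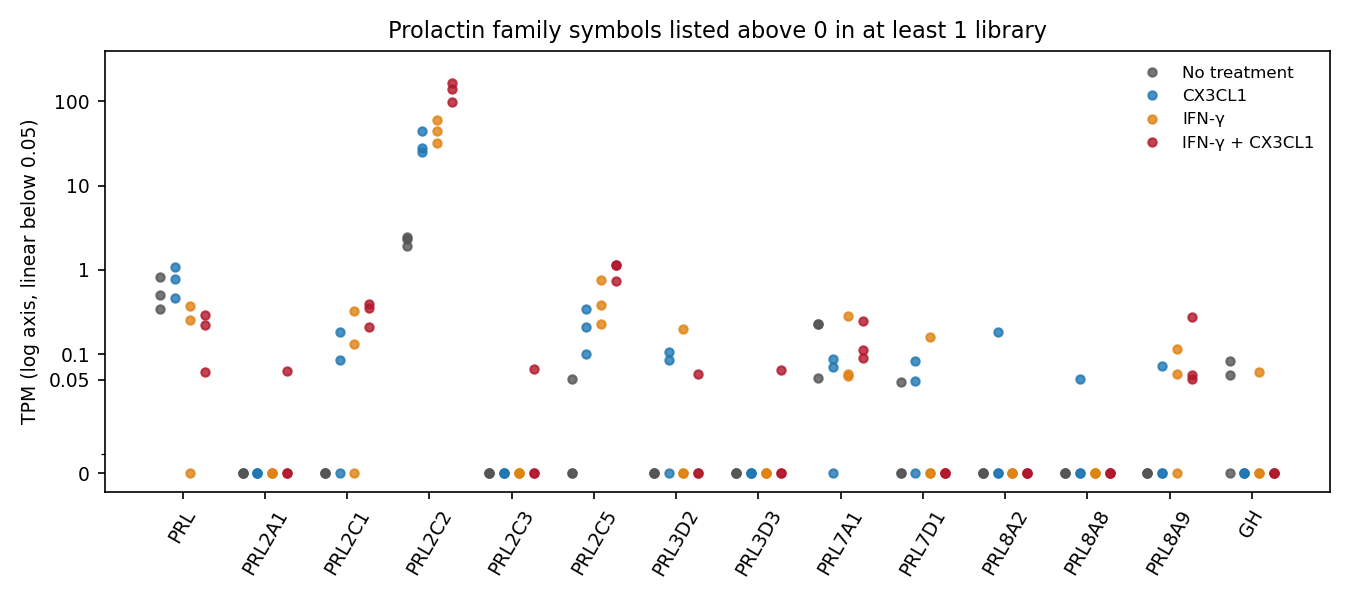
TPM (vertical axis, logarithmic and linear below 0.05) of the 14 prolactin family symbols listed above 0 in at least 1 library (horizontal axis), 1 point per library, colored by treatment. PRL2C2 reaches 167 TPM, while PRL, PRL2C5 and PRL2C1 stay near or below 1 TPM and PRL2C3 has 1 point above 0.

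Since proliferin marks trophoblast, markers of that and other cell types were read in the same libraries. Of 10 trophoblast markers, 6 were at 0 in every library, among them TPBPA, HAND1 and GCM1, and the list summed to 0.183 to 0.441 TPM per library. The fibroblast or mesenchyme list summed to 9038 to 12937 TPM in untreated libraries and 3675 to 6261 TPM with both ligands, led by S100A4 and VIM. Of the same list, THY1 and LUM were each above 0 in 1 library only. The colon epithelium list summed to 51.3 to 64.8 TPM in untreated libraries and 24.9 to 33.2 TPM with both ligands, nearly all of it KRT18 and KRT20, while EPCAM was at 0 in all 12 libraries and CDH1 averaged 0.0136 TPM. The leukocyte list summed to 8.78 to 27.6 TPM, mostly CD68, with CD3E at 0. Of the colon epithelium markers, KRT18 and KRT20 were thus present, at means of 45.3 and 12.8 TPM in untreated cells, while the junction proteins EPCAM and CDH1 were at or near 0. The sums of the mesenchyme and colon lists were lower in the group with both ligands than in untreated cells, without overlap, and the part of such shifts in the PRL2C2 values was not tested.

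Of 14 tested genes that receive and relay a proliferin or prolactin signal, none was called with CX3CL1 alone or in the presence of IFN-γ (limma, where 1.95% and 0.362% of all genes were called), and the list's medians were 0.06 and 0.06 on the log2 scale beside -0.02 and 0.00 over all genes. SOCS3, a feedback inhibitor of cytokine signalling, had the largest difference of the list when CX3CL1 was added to IFN-γ, from 23.4 ± 6.02 to 44.3 ± 13.04 TPM without overlap (0.88, limma, adjusted p = 0.146). JAK2, a kinase of cytokine receptors, followed with 40.2 ± 5.21 and 61.6 ± 12.5 TPM (0.59, limma, adjusted p = 0.474). IGF2R, the proliferin receptor, had means of 2.12 ± 0.064 TPM in untreated cells, 1.85 ± 0.127 with CX3CL1, 2.55 ± 0.090 with IFN-γ and 2.61 ± 0.185 with both. It was not called, with an adjusted p of 0.0583 for IFN-γ in the presence of CX3CL1 by limma, which was 0.0196 with the replicate block. PRLR, the prolactin receptor, was above 0 in 1 library only. M6PR, the cation-dependent mannose 6-phosphate receptor, was abundant at means of 187 to 212 TPM and was not called.

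With IFN-γ, STAT3, a transcription factor that cytokine receptors activate, rose from 18.3 ± 3.05 to 32.8 ± 5.87 TPM (log2 difference 0.80, limma, adjusted p = 0.00887). SOCS1, an inhibitor related to SOCS3, rose by 0.97 (limma, adjusted p = 0.0327). For IFN-γ in the presence of CX3CL1, STAT3 (0.75, limma, adjusted p = 0.020) and SOCS3 (1.10, limma, adjusted p = 0.00748) rose. That is 2 of 14 in each comparison, against 5.91% and 3.76% of all genes called higher and 7.85% and 4.7% called in either direction. With the replicate block, 4 of 14 were called higher for IFN-γ in the presence of CX3CL1, SOCS1 (0.60, limma, adjusted p = 0.00939) and IGF2R being added. There, 1035 of 11878 genes were called higher.

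AP-1 proteins are dimers of the JUN, FOS and BATF families, and the proliferin gene is a classical AP-1 target. None of 9 tested members of this list was called in either CX3CL1 comparison without the replicate block, where 1.95% and 0.362% of all genes were called. The medians were 0.19 for CX3CL1 alone and 0.04 in the presence of IFN-γ. With the block, JUNB (0.50, limma, adjusted p = 0.0196) and BATF2 (1.06, limma, adjusted p = 0.0278) were called higher with CX3CL1 alone. There, 347 of 11878 genes were called higher. FOSL1, the most abundant member, had means of 197 ± 41.7 TPM in untreated cells, 248 ± 17.9 with CX3CL1, 233 ± 27.4 with IFN-γ and 279 ± 51.4 with both, and was not called. JUN stood at means of 39.7, 45.6, 35.4 and 35.7 TPM in the same order, and NR3C1, the glucocorticoid receptor, at 48.7, 49.2, 44.2 and 45.5 TPM, and neither was called. With IFN-γ, JUNB rose from 61.5 ± 7.68 to 120 ± 20.1 TPM (0.94, limma, adjusted p = 0.0081), and BATF2, an interferon-induced factor, rose from 5.52 ± 1.17 to 59.6 ± 38.4 TPM (3.06, limma, adjusted p = 3.3e-04). BATF2 also rose with IFN-γ in the presence of CX3CL1 (2.13, limma, adjusted p = 0.00934). With the replicate block, 3 of 9 were called higher in each of these comparisons, with FOS added in both (0.38 and 0.42) and JUNB in the second (0.69). Over all 11878 genes, 1353 were called higher with IFN-γ against no treatment and 1035 with IFN-γ in the presence of CX3CL1.

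Among 13 tested growth factors of fibroblasts and their receptors, TGFB3 fell with CX3CL1 from 15.1 ± 3.19 to 8.52 ± 0.796 TPM (-0.74, limma, adjusted p = 0.0106), where 0.168% of all genes were called lower. FGFR1, a receptor for fibroblast growth factors, rose with IFN-γ from 10.1 ± 2.86 to 24.3 ± 9.87 TPM (1.15, limma, adjusted p = 0.030). There, 5.91% of all genes were called higher. For CX3CL1 in the presence of IFN-γ none was called, where 0.362% of all genes were called. With the replicate block FGFR1 (0.92, limma, adjusted p = 0.00306) and EREG, the growth factor epiregulin (0.74, limma, adjusted p = 0.0232), were called higher. The share of all genes called higher with the block was 0.749%. With CX3CL1 alone the block gave 3 higher and 2 lower, where 455 of 11878 genes were called. The higher were FGFR1 (1.23, limma, adjusted p = 1.2e-04), TGFB1 (0.61, limma, adjusted p = 0.00537) and EREG (0.67, limma, adjusted p = 0.0137). The lower were TGFB3 (-0.74, limma, adjusted p = 0.00187) and PDGFRB (-0.41, limma, adjusted p = 0.0266). With the block, 3 were higher and 2 lower for IFN-γ against no treatment, where 16.2% of all genes were called. For IFN-γ in the presence of CX3CL1, 2 were higher and 1 lower, where 11.5% were called.

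Proliferin acts on endothelial cells, and 14 other secreted regulators of vessel growth were tested. With IFN-γ, CTGF, a matrix-associated growth regulator, fell by 0.97 (limma, adjusted p = 0.0161), and SERPINF1, an inhibitor of vessel growth, fell by 1.32 (limma, adjusted p = 0.00506), where 1.94% of all genes were called lower. SERPINF1 also fell by 1.08 with IFN-γ in the presence of CX3CL1 (limma, adjusted p = 0.0266), where 0.935% were called lower. With the replicate block, 5 were lower and 1 higher in the first of these comparisons, and 3 were lower and 2 higher in the second, against 16.2% and 11.5% of all genes called in either direction with the block. None was called in either CX3CL1 comparison without the block, where 1.95% and 0.362% of all genes were called. VEGFA stood at means of 73.5, 73.6, 83.5 and 91.5 TPM. With the block, ANGPTL4 was called higher with CX3CL1 alone (0.80, limma, adjusted p = 0.0279), where 347 of 11878 genes were called higher. THBS1, the inhibitor thrombospondin-1, had 26.5 ± 11.4 TPM with IFN-γ and 72.7 ± 21.0 with both ligands (1.46, limma, adjusted p = 0.283). With the replicate block its limma adjusted p was 3.14e-04, where 0.749% of all genes were called higher.

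**Figure D4:**
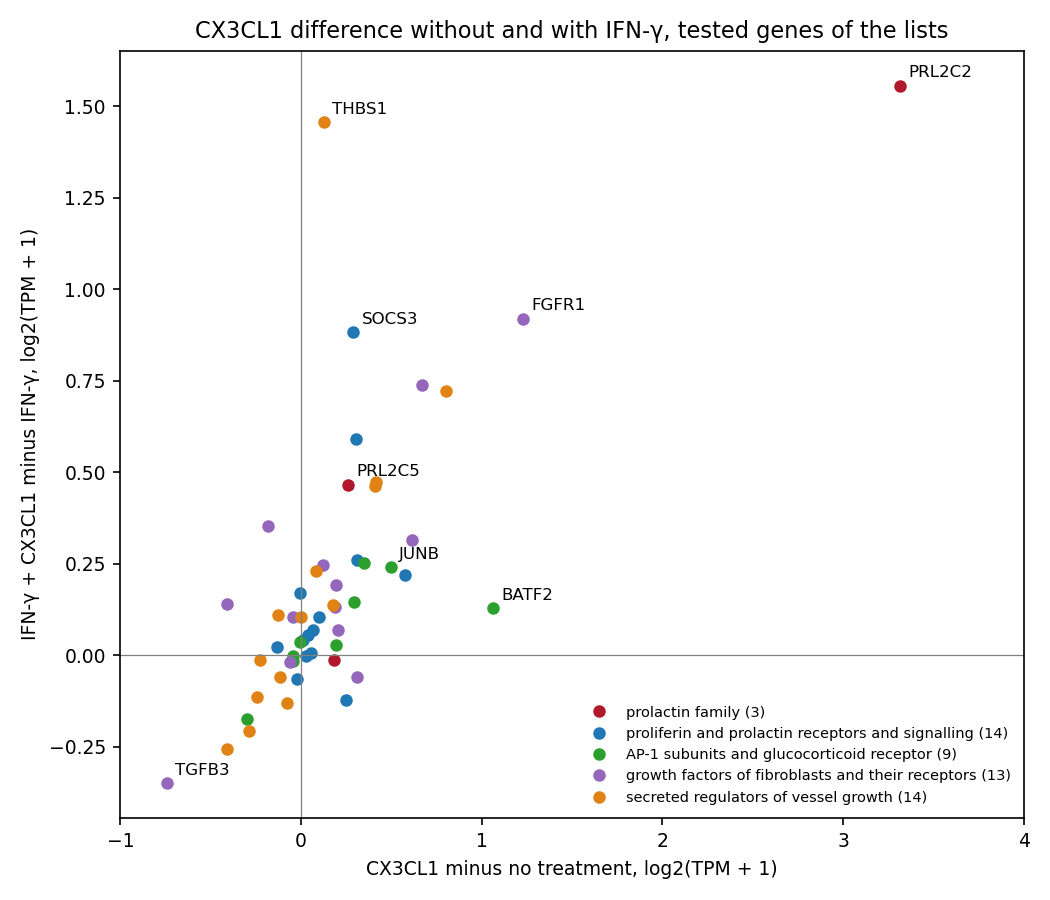
Difference of log2(TPM + 1) with CX3CL1 in the absence of IFN-γ (horizontal axis) and in its presence (vertical axis) for the tested genes of 5 lists, 1 point per gene, colored by list. PRL2C2 lies at 3.32 and 1.56, the farthest of these genes on both axes, with the horizontal value having chosen it, and the next on the vertical axis is THBS1 at 1.46, which was not called.

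To see which genes had a pattern like that of PRL2C2, the Pearson correlation of log2(TPM + 1) over the 12 libraries was computed with every tested gene. The closest were DDX58 (r = 0.962), the viral RNA sensor RIG-I, IFI204 (0.962), SP100 (0.960), OAS3 (0.959) and GSDMD (0.959), the pore-forming protein gasdermin D. The first 4 of these are interferon-inducible, and GSDMD too was higher with IFN-γ than in untreated cells here (log2 difference 0.87). In all, 134 genes had r of at least 0.9, and the 12 points of each fall into the 4 treatment groups, which sets most of the likeness. Within groups, the deviations from the group means correlated with those of PRL2C2 at r = 0.420, 0.404, 0.354, 0.457 and 0.0793 in that order.

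These 5 genes were higher with either ligand alone and differed from PRL2C2 in the size of the step. IFI204, a DNA-binding protein of the interferon response, had means of 52.3 TPM in untreated cells, 164 with CX3CL1, 242 with IFN-γ and 354 with both. DDX58 had means of 23.6, 78.1, 103 and 121 TPM. None of the 5 was called for CX3CL1 in the presence of IFN-γ, with adjusted p of 0.353 to 0.975 by limma. There, 0.362% of all genes were called. For PRL2C3, with a single value above 0, no such likeness was computed. PRL2C5 came at rank 155 with r = 0.895.

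**Figure D5:**
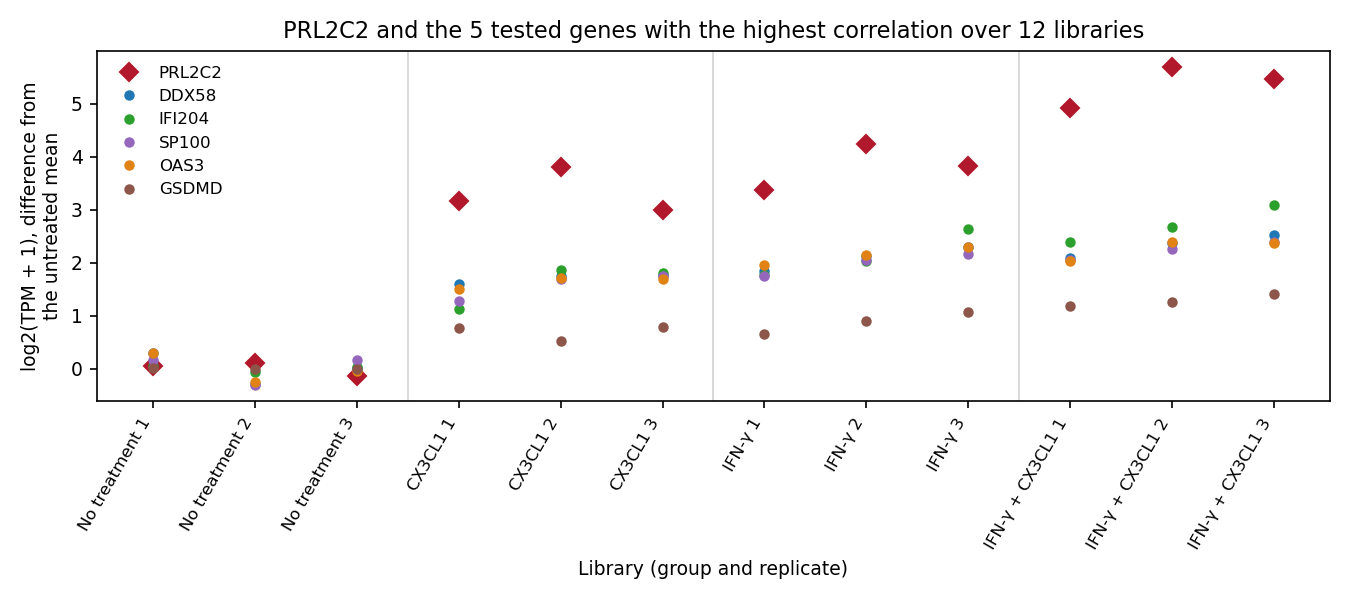
Difference of log2(TPM + 1) from the untreated mean (vertical axis) in each of the 12 libraries (horizontal axis) for PRL2C2 (diamonds) and the 5 tested genes with the highest correlation with it (dots). All 6 genes are higher in the treated libraries, and PRL2C2 has the largest difference from the untreated mean in each treated library.

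The genes next to the proliferins on chromosome 13 were read as well. LGALS8, which encodes the lectin galectin-8, rose with CX3CL1 from 39.4 ± 6.33 to 71.1 ± 5.58 TPM (0.85, limma, adjusted p = 0.00622) and with IFN-γ to 74.7 ± 11.5 TPM (0.91, limma, adjusted p = 0.0014). GPR137B, a lysosomal membrane protein, rose with IFN-γ from 19.1 ± 0.667 to 28.3 ± 3.09 TPM (0.54, limma, adjusted p = 0.0093). HEATR1, ERO1LB and NID1 were not called in any comparison without the replicate block. With the block, ERO1LB was called higher with IFN-γ (0.46, limma, adjusted p = 0.0256). GPR137B was with the block also called higher with CX3CL1 alone (0.45, limma, adjusted p = 0.0329). The same held for GPR137B with IFN-γ in the presence of CX3CL1 (0.39, limma, adjusted p = 0.0309). For CX3CL1 in the presence of IFN-γ, where PRL2C2 was called, none of these 5 neighbours was, with log2 differences of -0.03 to 0.34. In that comparison 0.362% of all genes were called, so no contrast with PRL2C2 is read from this count.

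A promoter sequence was at hand for Prl2c3 and not for Prl2c2. The 250 bases before the transcript start of Prl2c3 (RefSeq, GRCm38.p6, chr13:12800080-12800329, minus strand) and of Prl2c5 (chr13:13182466-13182715, plus strand) are shown because these copies resemble each other closely and differ at an AP-1 motif. They match at 241 of 251 aligned positions (96.0%). Capitals mark motif matches.
Prl2c3: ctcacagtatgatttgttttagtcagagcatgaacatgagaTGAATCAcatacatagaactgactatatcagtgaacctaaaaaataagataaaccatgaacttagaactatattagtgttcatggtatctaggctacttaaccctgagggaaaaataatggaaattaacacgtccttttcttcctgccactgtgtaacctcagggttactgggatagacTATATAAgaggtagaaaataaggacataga
Prl2c5: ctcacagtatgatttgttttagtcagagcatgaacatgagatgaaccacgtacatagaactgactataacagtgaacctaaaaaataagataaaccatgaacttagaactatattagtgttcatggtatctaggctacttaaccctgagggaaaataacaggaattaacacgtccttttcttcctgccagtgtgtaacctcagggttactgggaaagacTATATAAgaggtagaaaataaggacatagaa
The letters TGANTCA, an AP-1 motif, matched once in Prl2c3, starting 209 bases before the start as TGAATCA, and did not match in Prl2c5. The TATA box letters TATATAA matched in both, 30 and 31 bases before the start. Searched on both strands over the 250 bases before the start of all 32851 promoters, TGANTCA was found in 6.75% and TATATAA in 3.04%. The letters TTCNNNGAA, a STAT motif found in 7.02% of promoters, had no match in either window, which says only that these letters are not there.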

How the data were processed

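RNA of 12 cultures of the CT26 line was sequenced by the authors, with strand-specific mRNA libraries (Roche Kapa), alignment to mm10 with STAR 2.7.3a and tests of counts in DESeq2 1.22.1, per the labels and the study's methods. The authors deposited TPM, which sum to 1000000 in each library. Reads were pairs of 150 bases, with a target depth stated in the methods. How TPM were made from counts and the annotation are not given in the sources used here. TPM hold neither counts nor the depth reached, so no counting error was computed. Conditions came from the labels of the libraries.

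The members and gene lists were chosen with earlier results of these data known. Differences were computed from log2(TPM + 1) with limma 3.58.1 in R 4.3.3 (lmFit, eBayes with an intensity trend) over all 12 libraries, for the 11878 genes that averaged 0.2 TPM or more, and p-values were adjusted by Benjamini-Hochberg over them. PRL2C3 did not pass the filter, so its planned test was not made. Comparisons with 3 libraries against 3 cannot go below 0.1 in an exact permutation test, so none was used. The p-values measure the spread between biological replicates, whose separate cultures the labels do not describe.

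Genes were named by these rules: the members, every prolactin family symbol above 0, list genes that were called or among the 4 most abundant of their list, the 5 genes most like PRL2C2, and tested neighbours. IGF2R, PRLR, JUN, NR3C1, JAK2, THBS1, EREG, ANGPTL4, TGFB1, PDGFRB and the marker genes named were chosen after their values were seen. Samples with the same replicate number deviated together, with correlations of deviations from group means of 0.630 to 0.649 between the IFN-γ group and the group with both ligands, 0.220 to 0.460 between untreated and IFN-γ, and 0.351 to 0.428 between CX3CL1 and both. They were 0.00472 to 0.387 between untreated and CX3CL1 and 0.0324 to 0.447 between untreated and both, each below the limit of 0.1 for 1 pair. Between CX3CL1 and IFN-γ they were 0.226 to 0.584. The pairing is thus read from the values and from the number in the labels, which do not say what it marks.

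Transcripts and positions were taken from GENCODE vM21 (GRCm38) and promoters from RefSeq (GRCm38.p6). Sequences were aligned with Biopython 1.88. The script for tests across genes was tested on simulated data with known differences.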

Additional observations from a re-analysis of the deposited data

How the results depend on the processing

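The rise of PRL2C2 when CX3CL1 was added to IFN-γ kept its direction in all 20 other settings, and its adjusted p ran from 0.00131 to 0.123. It was past the threshold with another pseudocount, a filter at a mean of 1 TPM, median-ratio scaling, quantile normalization, no intensity trend and the replicate block. It was no longer past it without the filter on low TPM (1.56, adjusted p = 0.0945), with only the libraries compared (1.56, adjusted p = 0.116) and without 4 of the 12 libraries in turn, with values from 1.33 to 1.77 over the libraries left out. The sum of PRL2C2 and PRL2C3 behaved alike, at 1.56 in the same settings (adjusted p = 0.0945 and 0.116) and from 1.34 to 1.77 with 1 library left out. With a pseudocount of 0.1, PRL2C2 differed by 3.75 with CX3CL1 alone (3.32 with 1, and 3.08 to 3.48 with 1 library left out), and PRL2C3 by 0.244 when CX3CL1 was added to IFN-γ (0.0308 with 1, and 0 to 0.0462 with 1 library left out). The causes were not tested.

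With the replicate block, genes called went from 232 to 455 with CX3CL1 alone, from 932 to 1929 with IFN-γ and from 43 to 95 for CX3CL1 in the presence of IFN-γ. In the last of these, 28 were called without the filter and 20 with only the libraries compared. With 1 library left out the counts ran from 152 to 268, from 530 to 1499 and from 16 to 54, the 1499 being without CX3CL1 replicate 2, which is in neither group compared. With the block, list genes called went from 1 to 8 with CX3CL1 alone. The list genes reported above as called without the block, which leaves out PRL2C5, kept their direction and lost their calls in up to 7 settings. No setting moved the median of all genes by more than 0.0811. Scaling did move the split of calls with IFN-γ against no treatment, from 702 higher and 230 lower to 640 and 351 with median-ratio scaling and 556 and 536 with quantile normalization, and with IFN-γ in the presence of CX3CL1 from 447 and 111 to 357 and 187 and to 349 and 228. TPM hold no depth, so a value of 0 gives no limit for PRL2C3, and reads shared by the copies cannot be told apart here.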
